A study of Mus musculus with 18 samples.

Results

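Fatty acid desaturases and elongases are the enzymes that give newly made or dietary fatty acids their unsaturated bonds and their final chain length. The 9 genes described here, of 22787 genes in the deposited table, are the stearoyl-CoA desaturases Scd1 and Scd2, the fatty acid desaturases Fads1, Fads2 and Fads3, and the elongases Elovl1, Elovl5, Elovl6 and Elovl7. They were chosen by gene symbol, because Scd1 was nearly lost in Raptor KO cells and Fads2 differed between both inhibitors. Values in the Raptor comparison, and values of Fads2 and of every member between the inhibitors, are therefore given as description with no test.

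RNA of 18 mouse samples was sequenced by SmartSeq2, a method for small amounts of RNA. Of these, 12 were granulocyte-monocyte progenitors, the marrow cells that give rise to neutrophils and monocytes, sorted at 10000 cells a sample, with 3 libraries a group. The progenitor groups were the knockouts Raptor KO and Tsc2 KO, each with its control of floxed alleles, Raptor fl/fl or Tsc2 fl/fl. The sort kept c-kit-positive cells with Fc gamma receptors II and III, with little CD34 or Ly6C and without Sca-1, CD127 or CD135. The sources used here do not give the Cre that deleted the floxed alleles, nor the age and strain of the mice. The other 6 were DR-ER-Hoxb8 cells, an immortalized myeloid progenitor line whose growth depends on estradiol, kept with stem cell factor and differentiated for 3 days without estradiol in rapamycin at 100 nM, in SL0101-01 at 10 nM or in DMSO, with 2 libraries each. Raptor, encoded by Rptor, is the scaffold that brings substrates to the kinase complex mTORC1, Tsc2 belongs to the complex that restrains mTORC1, rapamycin inhibits mTORC1, and SL0101-01 is used against the RSK kinases. Neither kinase activity was measured here.

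Stearoyl-CoA desaturases turn saturated fatty acyl-CoA into monounsaturated fatty acyl-CoA. Fads2 catalyses the first and Fads1 the last desaturation on the way to arachidonic acid, the precursor of prostaglandins and leukotrienes in myeloid cells, with an elongation by Elovl5 in between, and Fads3 acts on sphingoid bases. Elovl6 lengthens palmitate to stearate, while Elovl1 and Elovl7 work on longer, mostly saturated chains. Many of these genes are known targets of the transcription factors SREBP and LXR, and mTORC1 is known to promote SREBP activity in several cell types.

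Progenitor libraries held 2.48 to 3.52 M fragments, and those of the Hoxb8 line 2.31 to 3.30 M. Values are normalized fragments per gene, so they compare 1 gene across libraries and not levels between genes. Tsc2 averaged 95.1 ± 10.8 normalized fragments in Tsc2 KO and 248 ± 18.0 in Tsc2 fl/fl (SD, n = 3 each), with a log2 fold change of -1.38 (limma, adjusted p = 0.000169), although another label field of those samples names Raptor, and groups follow the titles. Rptor averaged 63.3 ± 5.61 in Raptor KO and 84.5 ± 5.11 in Raptor fl/fl (SD, n = 3 each), which did not pass (log2 fold change -0.41, adjusted p = 0.377). These sums over a whole gene do not show the deleted exons. Y-linked transcripts were high in replicate 2 of both Tsc2 groups and at or near 0 in the other 10 progenitor libraries. Both replicate 2 libraries were also the highest of their Tsc2 groups in Scd1, in Fads2 and in the sum of erythroid markers given with Scd1. Progenitor markers, summed over 9 genes, stood at 40535, 8720 and 13098.5 in Tsc2 KO, in order of replicate. In Tsc2 fl/fl they stood at 78010.5, 36700 and 82502. Replicate 1 of Tsc2 KO thus held far more of these markers than the rest of its group. In the Raptor line the same sum was 63776 to 66297 in Raptor KO and 70363 to 80982 in Raptor fl/fl.

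**Figure D1:**
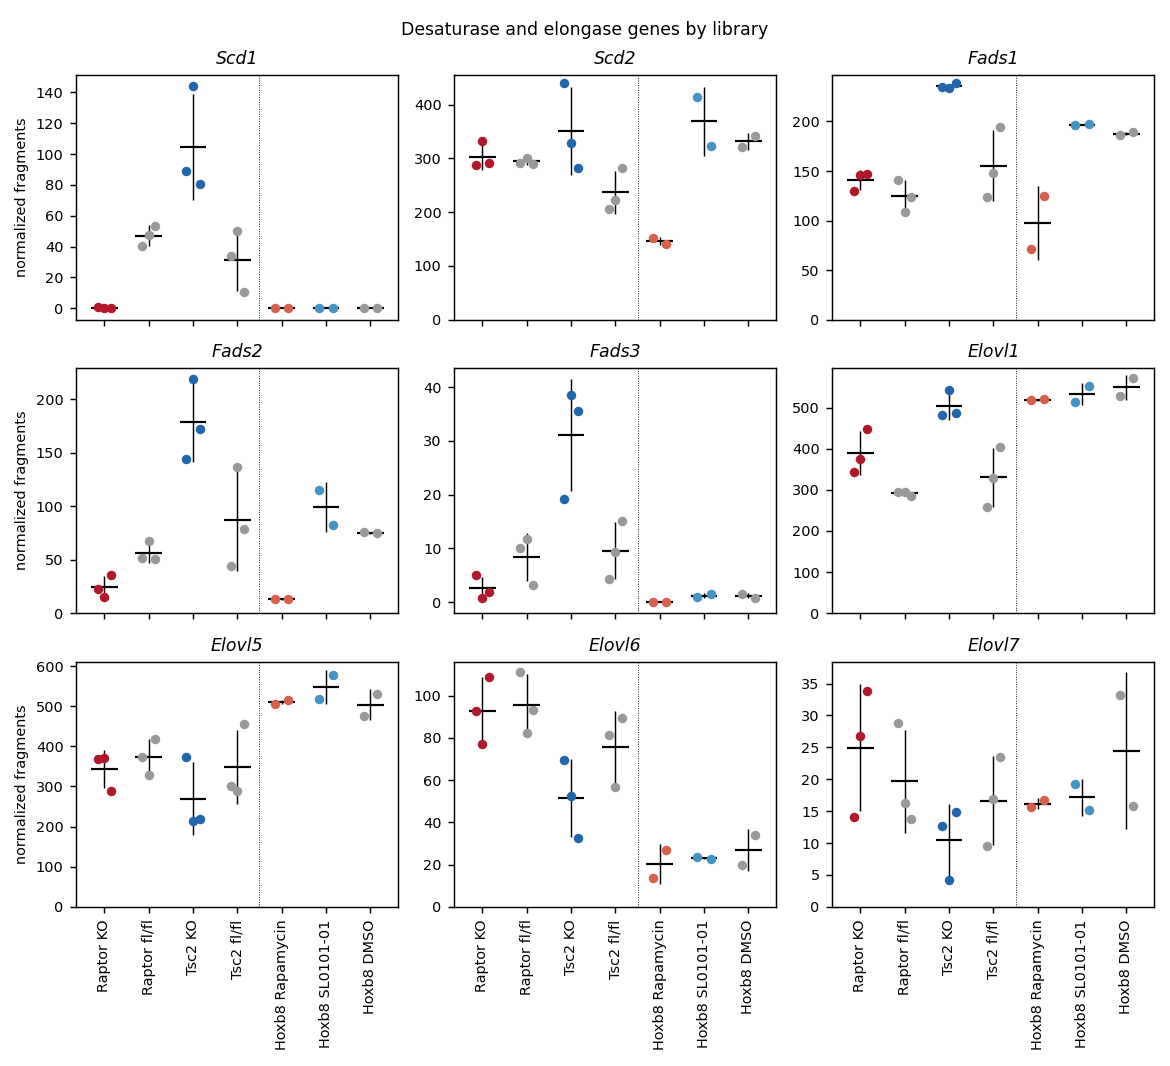
Normalized fragments of the 9 genes in every library (points) by group on the x axis, with the group mean (horizontal bar) and SD (vertical line). Scd1 lies at or near 0 in Raptor KO and in all 6 Hoxb8 libraries, and Scd2, Fads1 and Fads2 are lowest in rapamycin among Hoxb8 cells.

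Scd1, which makes oleate and palmitoleate from saturated precursors, was nearly absent from Raptor KO progenitors. It stood at 0.707, 0 and 0 normalized fragments in the 3 Raptor KO libraries, against 40.4, 47.5 and 53.6 in Raptor fl/fl. The 3 Raptor KO libraries together held 1 Scd1 fragment in 9.16 M, and the Raptor fl/fl libraries 183 in 9.28 M. The ratio of the summed fragments per depth was 0.00554, with an exact 95% interval of 0.00014 to 0.0312 that covers counting error only. It covers neither the spread between libraries nor the choice of Scd1 on this value, and it is no test. On the log2 scale of value plus 1, which understates changes of low values, the difference was -5.32. Scd1 was the member that chose the set in this comparison, and no test of it is given.

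In Tsc2 KO progenitors Scd1 was high. Its values were 88.8, 144 and 80.7 normalized fragments in Tsc2 KO, against 33.8, 49.9 and 10.3 in Tsc2 fl/fl, and every Tsc2 KO library lay above every Tsc2 fl/fl library. The log2 fold change was 1.91 (SE 0.486, adjusted p = 0.0154). The call was lost without Tsc2 KO replicate 2 (1.66, adjusted p = 0.0958) and without Tsc2 fl/fl replicate 3, the lowest fl/fl library (1.28, adjusted p = 0.087). Across groups the mean fell in the order Tsc2 KO (105 ± 34.7), Raptor fl/fl (47.1 ± 6.58), Tsc2 fl/fl (31.4 ± 19.9) and Raptor KO (0.236 ± 0.408, SD, n = 3 each), and the libraries of both fl/fl groups overlapped. All 6 Hoxb8 libraries had 0 Scd1 fragments, where 3 fragments, taken here as the floor of detection in a library, would be 2.27 to 3.36 normalized fragments. Scd1 can be compared neither between inhibitors nor with DMSO at this depth.

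Taken as a sum, erythroid markers moved with Scd1 in both lines. Summed over 8 genes they stood at 1250, 932 and 1391 normalized fragments in Raptor KO, against 2142, 1838 and 1993 in Raptor fl/fl, and 4 of the 8 passed, all lower. In the Tsc2 line the sums were 5195, 10983 and 10054 in Tsc2 KO, against 1498, 4667 and 2871 in Tsc2 fl/fl, and 2 of the 8 passed, both higher. None of the 8 was at 0 in a whole progenitor group. Car1, a carbonic anhydrase of red cells and the most abundant of the 8, ran from 760 to 1212 in Raptor KO and from 1149 to 1521 in Raptor fl/fl, and from 4082 to 8452 in Tsc2 KO and from 1149 to 3255 in Tsc2 fl/fl. Car1 thus overlapped between the Raptor groups. In the Tsc2 line Hba-a1 averaged 28.2 in Tsc2 KO and 28.6 in Tsc2 fl/fl, and Alas2 30.4 and 29.6. Means of the other erythroid markers were higher in Tsc2 KO, and those of all 8 were lower in Raptor KO. In Hoxb8 cells, where Scd1 was at 0, the erythroid sum ran from 0.916 to 1.12 in rapamycin, 1.52 to 5.25 in SL0101-01 and 0.830 to 11.1 in DMSO. B cell markers, summed over 8 genes, were lower in both knockouts, at 106 to 148 in Raptor KO against 740 to 1067 in Raptor fl/fl, and at 20.7 to 74.2 in Tsc2 KO, where Pax5 was at 0, against 328 to 539 in Tsc2 fl/fl. Of the 8, 7 passed as lower in Raptor KO and 6 in Tsc2 KO. Macrophage markers, summed over 7 genes, ran from 231 to 749 in Raptor KO against 69.8 to 130 in Raptor fl/fl, and from 388 to 665 in Tsc2 KO against 6.77 to 38.1 in Tsc2 fl/fl, with 1 and 5 passing as higher. In the Raptor line this sum was mostly Gpnmb, a glycoprotein of macrophages, which averaged 384 in Raptor KO and 1.87 in Raptor fl/fl, while Mrc1, the mannose receptor, averaged 4.40 in Raptor KO and 20.8 in Raptor fl/fl, and the complement gene C1qa 9.56 in Raptor KO and 16.9 in Raptor fl/fl. Megakaryocyte markers, 5 genes, summed to 360 to 411 in Raptor KO against 957 to 1146 in Raptor fl/fl and to 134 to 163 in Tsc2 KO against 334 to 647 in Tsc2 fl/fl, with 2 and 3 passing as lower. Basophil and mast cell markers, 5 genes, summed to 8959 to 11012 in Raptor KO against 3373 to 7132 in Raptor fl/fl and to 2962 to 7927 in Tsc2 KO against 1132 to 2415 in Tsc2 fl/fl, with 1 passing as higher in Tsc2 KO. Neutrophil markers, 8 genes, summed to 377 to 478 in Raptor KO against 659 to 1878 in Raptor fl/fl, with 2 passing as lower. In the Tsc2 line they summed to 1047 to 3378 in Tsc2 KO against 406 to 1504 in Tsc2 fl/fl. Lcn2, the largest part of the Raptor KO sum, went the other way, averaging 299 in Raptor KO and 91.2 in Raptor fl/fl. Mmp8 averaged 9.94 in Raptor KO and 6.67 in Raptor fl/fl, and the means of the other neutrophil markers were lower in Raptor KO. The part of these cell types in the Scd1 values was not tested, and in such bulk samples fewer cells of a type and less RNA per cell cannot be told apart.

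**Figure D2:**
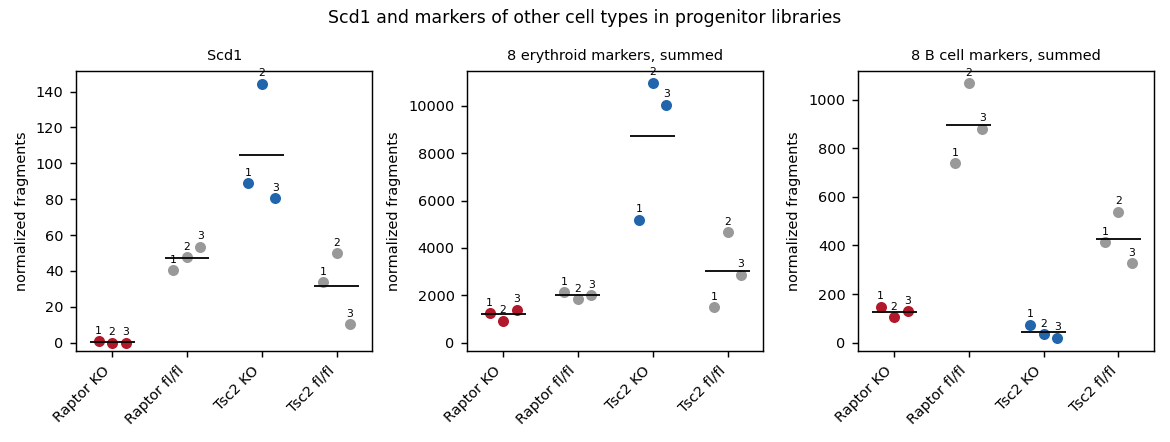
Normalized fragments (y axis) of Scd1 and of summed erythroid and B cell markers in each progenitor library, numbered by replicate, by group (x axis), with group means as bars. Scd1 and the erythroid sum are low in Raptor KO and high in Tsc2 KO, while the B cell sum is low in both knockouts.

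Scd2, the stearoyl-CoA desaturase of most tissues outside the adult liver, had overlapping libraries in the Raptor line, where Scd1 was nearly lost. Its values were 287, 331 and 291 normalized fragments in Raptor KO, against 291, 301 and 290 in Raptor fl/fl, with overlapping libraries and a log2 difference of 0.04. Of the 50-base words in annotated Scd1 transcripts, 4.56% occur in another gene, mostly Scd3, and 3.97% of those of Scd2, mostly Scd1, so reads of these genes could be split or swapped over a small part of their length. In Tsc2 KO Scd2 had 441, 328 and 281.5 normalized fragments, against 206, 223 and 281.2 in Tsc2 fl/fl. The groups did not overlap, by a narrow margin between the lowest Tsc2 KO and the highest Tsc2 fl/fl library. Scd2 passed (log2 fold change 0.55, SE 0.165, adjusted p = 0.0345), and lost the call without Tsc2 KO replicate 1 (0.37, adjusted p = 0.125), Tsc2 KO replicate 2 (0.58, adjusted p = 0.0828), Tsc2 fl/fl replicate 1 (0.46, adjusted p = 0.146) or Tsc2 fl/fl replicate 2 (0.51, adjusted p = 0.0615).

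In Hoxb8 cells Scd2 fell under rapamycin. It had 151 and 141 normalized fragments in rapamycin, 415 and 323 in SL0101-01, and 321 and 342 in DMSO. Both rapamycin libraries were below every library of the other 2 groups, while SL0101-01 and DMSO overlapped. Against DMSO the log2 fold change was -1.18 in rapamycin (SE 0.168, adjusted p = 4.66e-05), and it passed without each library in turn (-1.23 to -1.13), but not without the expression trend (-1.18, adjusted p = 0.0645). Against DMSO it was 0.14 in SL0101-01 (95% interval -0.20 to 0.49, adjusted p = 0.659), which did not pass. Between the inhibitors, the rapamycin mean of 146 ± 7.16 was 0.396 times the SL0101-01 mean of 369 ± 64.9 (SD, n = 2 each).

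Fads1 and Fads2, the desaturases of the arachidonic acid route, were both higher in Tsc2 KO and both low in rapamycin, but only Fads2 had Raptor KO libraries apart from those of Raptor fl/fl. Fads1 had 235, 234 and 239 normalized fragments in Tsc2 KO, against 124, 148 and 195 in Tsc2 fl/fl. The Tsc2 KO libraries lay close together and above all Tsc2 fl/fl libraries (log2 fold change 0.62, SE 0.179, adjusted p = 0.0291). It no longer passed without Tsc2 fl/fl replicate 1 (0.47, adjusted p = 0.15), Tsc2 KO replicate 2 (0.63, adjusted p = 0.0924) or Tsc2 KO replicate 3 (0.61, adjusted p = 0.104). In Raptor KO Fads1 had 129, 146 and 147 normalized fragments, against 141, 109 and 123 in Raptor fl/fl, which overlapped.

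Under rapamycin Fads1 had 71.5 and 124 normalized fragments, against 186 and 189 in DMSO. SL0101-01 gave 197 and 197, just above both DMSO libraries. Rapamycin was lower than DMSO (log2 fold change -0.99, SE 0.216, adjusted p = 0.00345), a call lost without DMSO replicate 1 (-1.0, adjusted p = 0.0638), DMSO replicate 2 (-0.98, adjusted p = 0.0677) or rapamycin replicate 1 (-0.59, adjusted p = 0.0633), the lower of the rapamycin libraries, and without the expression trend (-0.99, adjusted p = 0.164). SL0101-01 against DMSO gave 0.07 (95% interval -0.38 to 0.52, adjusted p = 0.885). The rapamycin mean was 97.9 ± 37.3 and the SL0101-01 mean 197 ± 0.174 (SD, n = 2 each).

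Fads2, the enzyme of the first desaturation step, had group means from 13.1 in rapamycin to 178 in Tsc2 KO, while those of Fads1 ran from 97.9 to 236. Raptor KO libraries had 22.6, 14.9 and 35.7 normalized fragments, against 51.9, 67.7 and 50.3 in Raptor fl/fl. The 2 groups were apart, with a log2 difference of -1.25. Tsc2 KO libraries had 145, 219 and 172, against 44.2, 137 and 79.0 in Tsc2 fl/fl, and the libraries with Y-linked transcripts (219 and 137) were the highest of their groups. All Tsc2 KO libraries lay above all Tsc2 fl/fl libraries (log2 fold change 1.16, SE 0.358, adjusted p = 0.0425). This too no longer passed without Tsc2 fl/fl replicate 1 (0.75, adjusted p = 0.213), Tsc2 fl/fl replicate 3 (1.16, adjusted p = 0.111), Tsc2 KO replicate 2 (1.0, adjusted p = 0.171) or Tsc2 KO replicate 3 (1.17, adjusted p = 0.118).

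The inhibitors chose Fads2, so its Hoxb8 values are description. They were 12.8 and 13.4 normalized fragments in rapamycin, 115 and 82.6 in SL0101-01, and 75.8 and 74.7 in DMSO. The rapamycin libraries were far below the rest, and both SL0101-01 libraries were above both DMSO libraries. The rapamycin mean of 13.1 ± 0.429 was 0.133 times the SL0101-01 mean of 99.02 ± 23.2 (SD, n = 2 each). On the log2 scale rapamycin differed from SL0101-01 by -2.80 and from DMSO by -2.43, and SL0101-01 from DMSO by 0.37, and these 3 differences share libraries. Over all 7 groups, Fads2 was highest in Tsc2 KO and lowest in rapamycin, and Raptor KO stood between rapamycin and Raptor fl/fl with no overlap on either side.

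Fads3 was a low gene whose means ran in the same order as those of Fads2 in the progenitor groups. It had 19.2, 38.5 and 35.6 normalized fragments in Tsc2 KO, against 4.34, 9.31 and 15.0 in Tsc2 fl/fl. The groups did not overlap, yet the log2 fold change of 1.68 (SE 0.606, adjusted p = 0.0751) did not pass, except without Tsc2 KO replicate 1 (1.99, adjusted p = 0.0419). Raptor KO libraries had 4.95, 0.743 and 1.88, against 10.1, 11.7 and 3.25 in Raptor fl/fl, which overlapped. In Hoxb8 cells Fads3 was at or below 1.58 in every library, with 0 fragments in rapamycin and 3 fragments in each of SL0101-01 and DMSO, which is at the limit of detection. Its fits there rest on these few fragments, and nothing is read from them or from its lack of overlap.

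Fads2 and Fads3 lie on mouse chromosome 19, and their levels varied together over the 18 libraries (Pearson r = 0.835, with the mean of each cell source removed, as a description over libraries that share groups). The promoter windows of this pair are shown because their levels moved together. Each is 300 bases around the annotated start, from RefSeq on GRCm38.p6 (Fads2 at chr19:10101454-10101753, minus strand, and Fads3 at chr19:10041298-10041597, plus strand). They are written 5′ to 3′ in gene orientation, and capitals mark ATTGG or its reverse complement CCAAT, the NF-Y box found beside many SREBP sites.
Fads2 promoter: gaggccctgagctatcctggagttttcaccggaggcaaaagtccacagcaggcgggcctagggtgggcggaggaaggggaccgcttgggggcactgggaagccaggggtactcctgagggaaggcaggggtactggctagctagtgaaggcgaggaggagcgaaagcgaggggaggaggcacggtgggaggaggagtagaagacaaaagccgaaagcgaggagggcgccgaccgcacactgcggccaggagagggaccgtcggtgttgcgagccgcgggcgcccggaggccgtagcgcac
Fads3 promoter: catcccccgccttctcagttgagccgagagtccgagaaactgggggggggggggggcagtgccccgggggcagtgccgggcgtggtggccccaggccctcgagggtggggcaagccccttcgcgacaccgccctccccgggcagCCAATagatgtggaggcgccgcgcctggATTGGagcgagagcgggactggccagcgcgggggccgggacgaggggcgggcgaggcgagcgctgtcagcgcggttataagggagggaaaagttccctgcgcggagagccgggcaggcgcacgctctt
The Fads3 window held CCAAT at -106 and ATTGG at -78 from the start, and the Fads2 window held neither. ATTGG occurred on either strand in 37.4% of 32851 promoter windows of this length, so its presence is common. The sterol regulatory element TCACNCCAC (N is any base, 1.24% of windows) and the LXR repeat of AGGTCA, any 4 bases and AGGTCA (0.0152%) were in neither window on either strand, nor was the E-box CACGTG (7.15%). Among the elongase windows, Elovl5 held ATTGG at -71 and -17 and an E-box at -161, and 1 of the Elovl1 windows held CCAAT at -35. These matches are letters in a window and not measured sites, and motifs do not overlap each other.

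Elovl1, which makes very long saturated chains for sphingolipids, was higher in Tsc2 KO. It had 482, 544 and 487 normalized fragments in Tsc2 KO, against 259, 329 and 403 in Tsc2 fl/fl, with no overlap (log2 fold change 0.63, SE 0.154, adjusted p = 0.0128). Elovl1 no longer passed without Tsc2 fl/fl replicate 1 (0.47, adjusted p = 0.0776) or Tsc2 KO replicate 2 (0.57, adjusted p = 0.0696). Raptor KO libraries had 344, 375 and 448, against 296, 296 and 285 in Raptor fl/fl, and these were also apart, with a log2 difference of 0.40. Elovl1 was the member with higher libraries in both knockouts. In Hoxb8 cells it had 518 and 521 in rapamycin, 513 and 552 in SL0101-01, and 528 and 571 in DMSO. Neither inhibitor passed against DMSO, with log2 fold changes of -0.08 for rapamycin (95% interval -0.38 to 0.22, adjusted p = 0.798) and -0.04 for SL0101-01 (95% interval -0.34 to 0.25, adjusted p = 0.888), and the first turned to 0.04 under quantile normalization.

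Elovl5, the elongase of polyunsaturated chains, did not pass in a tested comparison. Its values were 375, 215 and 219 normalized fragments in Tsc2 KO, against 300, 289 and 456 in Tsc2 fl/fl, with overlap (log2 fold change -0.39, SE 0.212, adjusted p = 0.255). Without Tsc2 KO replicate 1, which held the highest value of its group, it passed as lower (-0.65, adjusted p = 0.0157). In Raptor KO it had 369, 372 and 289, against 372, 329 and 419 in Raptor fl/fl. Hoxb8 cells had 507 and 515 in rapamycin, 519 and 578 in SL0101-01, and 476 and 531 in DMSO. The log2 fold change against DMSO was 0.02 for rapamycin (95% interval -0.28 to 0.32, adjusted p = 0.953) and 0.12 for SL0101-01 (95% interval -0.18 to 0.42, adjusted p = 0.664). The rapamycin value was -0.01 with voom weights.

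Elovl6, which lengthens palmitate to the substrate of the stearoyl-CoA desaturases, was also not among the members that rose with Scd1. It had 69.6, 52.3 and 32.6 normalized fragments in Tsc2 KO, against 81.5, 56.7 and 89.3 in Tsc2 fl/fl (log2 fold change -0.59, SE 0.272, adjusted p = 0.169). Again it passed as lower without Tsc2 KO replicate 1 (-0.84, adjusted p = 0.0375). Raptor KO had 92.7, 77.3 and 109, against 111, 82.5 and 93.3 in Raptor fl/fl, with overlap. In Hoxb8 cells Elovl6 had 13.7 and 26.9 in rapamycin, 23.6 and 22.7 in SL0101-01, and 19.8 and 34.0 in DMSO, so all 3 groups overlapped. Against DMSO the log2 fold change was -0.41 in rapamycin (95% interval -1.25 to 0.42, adjusted p = 0.587) and -0.16 in SL0101-01 (95% interval -0.99 to 0.68, adjusted p = 0.857). Of its 50-base transcript words, 3.98% occur in other genes, mostly the gene model Gm11295.

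Elovl7, an elongase of long saturated chains, was low and variable. It ran from 4.13 to 14.8 normalized fragments in Tsc2 KO and from 9.54 to 23.5 in Tsc2 fl/fl (log2 fold change -0.69, SE 0.509, adjusted p = 0.419). In Raptor KO it ran from 14.1 to 33.8, and in Raptor fl/fl from 13.8 to 28.9. Hoxb8 libraries ran from 15.6 to 16.8 in rapamycin, from 15.2 to 19.2 in SL0101-01 and from 15.8 to 33.2 in DMSO, with log2 fold changes against DMSO of -0.48 in rapamycin (adjusted p = 0.538) and -0.41 in SL0101-01 (adjusted p = 0.611). Elovl7 overlapped in all 5 comparisons.

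Counted together, 5 of the 9 members passed in Tsc2 KO against Tsc2 fl/fl, all higher: Scd1, Scd2, Fads1, Fads2 and Elovl1. Over all genes tested in that comparison 12.4% passed in either direction, 5.26% as higher and 7.12% as lower. All 9 members passed the filter on low values. With Fads3, 6 of the 9 had Tsc2 KO libraries above all Tsc2 fl/fl libraries, which 14.6% of all genes did, and the members' median log2 fold change was 0.62, beside -0.02 over all genes. The count was 5 with a term for sex. It was 0 without the expression trend and 0 with only the groups compared in the fit. It was 2 without both libraries with Y-linked transcripts (Scd1 and Fads2), 2 under quantile normalization (Scd1 and Elovl1), and 0 without Tsc2 KO replicate 2. Leaving out Tsc2 fl/fl replicate 1 gave 1, Tsc2 fl/fl replicate 3 gave 3, Tsc2 KO replicate 3 also gave 3, and Tsc2 KO replicate 1 gave 7, of which 2 were lower.

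The rule used the Raptor comparison, where 3.94% of all genes passed (1.53% higher and 2.42% lower) and nothing is read from the members' share. There the libraries of Scd1 and Fads2 were lower without overlap, as were those of 13.1% of all genes, Elovl1 was higher without overlap, as were 13.3%, and the other 6 members overlapped. In rapamycin against DMSO, Fads2 aside, 2 of 7 tested members passed, Scd2 and Fads1, both lower, where 6.35% of all genes passed as lower and 5.40% as higher. Libraries below DMSO without overlap were found for 5 of the 9 members (Scd2, Fads1, Fads2, Fads3 and Elovl1), beside 27.0% of all genes. Nothing is read from this count, which holds Fads2, chosen on the inhibitors, and Fads3 with its few fragments. Scd1, at 0, is among the 9 but not among the genes of that share. In SL0101-01 against DMSO, 0 of 7 passed in limma, and 0 had an unadjusted p under 0.05, where 10.9% of all genes passed (5.09% higher and 5.79% lower), and voom weights on the recovered fragments also gave 0. Fads1 and Fads2 were above DMSO without overlap, as were 26.6% of all genes. Both inhibitor comparisons share the DMSO libraries. Between the inhibitors 8.87% of all genes passed, and 5 members (Scd2, Fads1, Fads2, Fads3 and Elovl5) were lower in rapamycin without overlap, beside 25.1% of all genes. The rule used this comparison too, through Fads2, and nothing is read from the members' share in it. Fads3 is among the 7 tested members, and among those lower in rapamycin, on 0 fragments in rapamycin and 3 in each of SL0101-01 and DMSO.

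**Figure D3:**
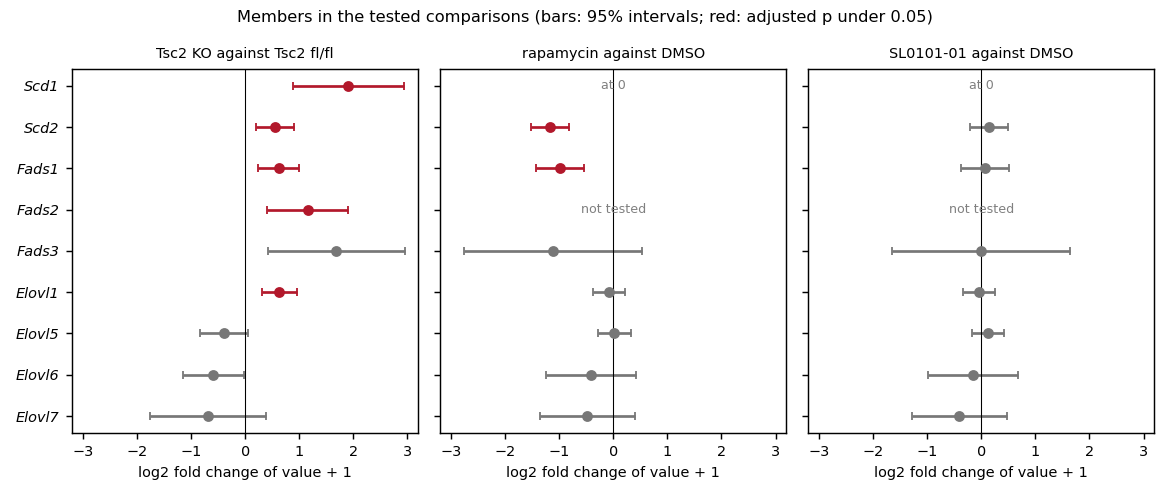
Log2 fold change of value plus 1 (x axis) of the members (y axis) in Tsc2 KO against Tsc2 fl/fl, rapamycin against DMSO and SL0101-01 against DMSO, with 95% intervals. Scd1, at 0 in Hoxb8 cells, and Fads2, which the inhibitors chose, are not drawn against DMSO. Fads3 is drawn there, although it held at most 3 fragments in each Hoxb8 group. Red marks adjusted p under 0.05 among the drawn members: Scd1, Scd2, Fads1, Fads2 and Elovl1 in Tsc2 KO, and Scd2 and Fads1 in rapamycin.

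The Hoxb8 groups also differed in markers of maturity. The 9 progenitor markers summed to 56621 to 58339 normalized fragments in rapamycin, 25471 to 32025 in SL0101-01 and 12726 to 13707 in DMSO. Of the 9, 5 passed as higher and 0 as lower in each inhibitor against DMSO, and likewise in rapamycin against SL0101-01. Mpo was the largest part, averaging 41158 in rapamycin, 17468 in SL0101-01 and 6470 in DMSO. Csf1r ran the other way, averaging 584 in rapamycin, 1051 in SL0101-01 and 1759 in DMSO. Cd34 averaged 47.3, 25.7 and 51.7 in these groups, and Fcgr3 947, 409 and 632. Means of the other progenitor markers fell in the order of the sum. Neutrophil markers, 8 genes, summed to 62586 to 96526 in rapamycin, 53993 to 81373 in SL0101-01 and 114690 to 159219 in DMSO. Of these, 2 were lower in rapamycin and 5 lower in SL0101-01 against DMSO. Macrophage markers, 7 genes, summed to 489 to 591 in rapamycin, 304 to 314 in SL0101-01 and 708 to 794 in DMSO, and of 3 tested 2 were lower in rapamycin and 3 in SL0101-01 against DMSO. Erythroid and B cell markers were near 0 in this line. The part of these markers in the values of Scd2, Fads1 and Fads2 was not tested.

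Over the 18 libraries, with the mean of each cell source removed, the levels most like each member were sought among 11334 genes as a description. Scd1 was most like Cd24a, the surface protein CD24 of immature blood cells (r = 0.966), Mtfr1, a mitochondrial fission regulator (0.922), and Epb4.2, a protein of the red cell membrane skeleton (0.915). All 6 Hoxb8 libraries had no Scd1 fragments, so each r of Scd1 came from the 12 progenitor libraries. These include the Raptor comparison that chose Scd1. Variation of another gene in Hoxb8 cells could only weaken its r with Scd1. Cd24a averaged 391 ± 47.8 in Raptor KO and 1761 ± 97.3 in Raptor fl/fl, and 2846 ± 748 in Tsc2 KO and 1812 ± 749 in Tsc2 fl/fl (SD, n = 3 each). Fads2 was most like Ccna2, the S phase and mitotic cyclin A2 (0.961), Cenpa, the histone variant of centromeres (0.928), and Lpcat3, which puts polyunsaturated chains into phospholipids (0.927). Each r of Fads2 includes the inhibitor libraries whose difference chose it. Ccna2 averaged 482 ± 41.1 in Raptor KO and 679 ± 60.7 in Raptor fl/fl, 1129 ± 151 in Tsc2 KO and 725 ± 240 in Tsc2 fl/fl (SD, n = 3 each), and 581 ± 105 in rapamycin, 1322 ± 232 in SL0101-01 and 1073 ± 33.3 in DMSO (SD, n = 2 each). Fads1 was most like the kinetochore gene Ndc80 (0.908) and Fads3 most like Ube2j1 of protein degradation at the endoplasmic reticulum (0.947). Every r of Fads3 includes the Hoxb8 libraries, where it was at the limit of detection. Scd2 (Csnk1a1, 0.853), Elovl1 (Mt2, 0.873), Elovl5 (Fam173a, 0.891), Elovl6 (Cluap1, 0.892) and Elovl7 (Lrrcc1, 0.848) had less close matches. Among members, Fads2 and Fads1 had r = 0.774, Scd1 and Fads3 0.731, Fads1 and Scd2 0.694, and Scd1 and Scd2 0.008.

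Elongases work in a cycle with other enzymes, and desaturases draw electrons from cytochrome b5. Of 11 such partner genes tested, 3 passed as higher and 0 as lower in Tsc2 KO, with a list median of -0.10. Cyb5, the cytochrome b5 that hands electrons to desaturases, averaged 597 ± 78.6 normalized fragments in Tsc2 KO and 318 ± 14.8 in Tsc2 fl/fl (SD, n = 3 each, log2 fold change 0.90, adjusted p = 0.000401). Its reductase Cyb5r3 rose by 0.62 (adjusted p = 0.0465) and the dehydratase Ptplad1 by 0.58 (adjusted p = 0.035). In Raptor KO 0 of the 11 passed. In rapamycin 2 were higher and 1 lower, and in SL0101-01 3 were higher and 1 lower. Ptplad1 and Ptpla, both dehydratases of the elongation cycle, were higher with either inhibitor: Ptpla averaged 77.3 ± 23.7 in rapamycin, 83.5 ± 5.58 in SL0101-01 and 33.7 ± 4.03 in DMSO (SD, n = 2 each). Ptplad2, of the same family, averaged 113 ± 21.0 in rapamycin, 54.9 ± 7.08 in SL0101-01 and 270 ± 37.4 in DMSO, and passed as lower in both against DMSO (-1.25 and -2.28). Of 8 further desaturase and elongase genes, 5 were tested in progenitors and 4 in Hoxb8 cells, and Degs1, the desaturase that makes ceramide, was the member of that list that passed. Degs1 averaged 278 ± 32.3 in Tsc2 KO and 176 ± 52.4 in Tsc2 fl/fl (SD, n = 3 each, log2 fold change 0.69, adjusted p = 0.0226), and 836 ± 3.35 in rapamycin, 951 ± 24.3 in SL0101-01 and 1571 ± 55.8 in DMSO (SD, n = 2 each, -0.91 and -0.72 against DMSO, both passing).

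Fatty acid synthesis supplies the substrates of these enzymes. In Tsc2 KO 1 of its 9 tested genes passed, Acss2, which makes acetyl-CoA from acetate, at 126 ± 36.3 in Tsc2 KO and 55.8 ± 26.7 in Tsc2 fl/fl (SD, n = 3 each, 1.25, adjusted p = 0.0405). In rapamycin 0 of 8 passed, and in SL0101-01 4 of 8 passed, all higher, although 0 of the members did. Fasn, the fatty acid synthase, averaged 463 ± 28.0 in rapamycin, 738 ± 96.0 in SL0101-01 and 474 ± 26.5 in DMSO (SD, n = 2 each), with a log2 fold change in SL0101-01 against DMSO of 0.64 (adjusted p = 0.00737). The citrate carrier Slc25a1 (0.78), the carboxylase regulator Mid1ip1 (0.46) and the citrate lyase Acly (0.45) were the other 3.

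Among 13 genes of SREBP processing and feedback, 3 passed as higher and 1 as lower in Tsc2 KO, with a list median of 0.53. Srebf1, which encodes SREBP-1, averaged 294 ± 31.5 in Tsc2 KO and 174 ± 55.0 in Tsc2 fl/fl (SD, n = 3 each, 0.80, adjusted p = 0.0159). Insig1, the sterol-regulated retention factor, rose by 0.99 and Lpin1, a phosphatidate phosphatase, by 1.19, while Mbtps2, the site-2 protease, fell by 1.17. In Raptor KO the 1 gene that passed was the sterol synthesis gene Hmgcs1, higher at 192 ± 14.5 in Raptor KO and 94.2 ± 9.72 in Raptor fl/fl (SD, n = 3 each, 1.02, adjusted p = 0.0184). In rapamycin 1 passed as higher and 2 as lower (Hmgcs1, -0.81, and Insig1, -0.62), and in SL0101-01 3 passed as higher, among them Insig1 (0.82). Insig1 averaged 403 ± 2.32 in rapamycin, 1091 ± 73.0 in SL0101-01 and 617 ± 24.3 in DMSO (SD, n = 2 each), so it passed in opposite directions against the shared DMSO libraries.

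**Figure D4:**
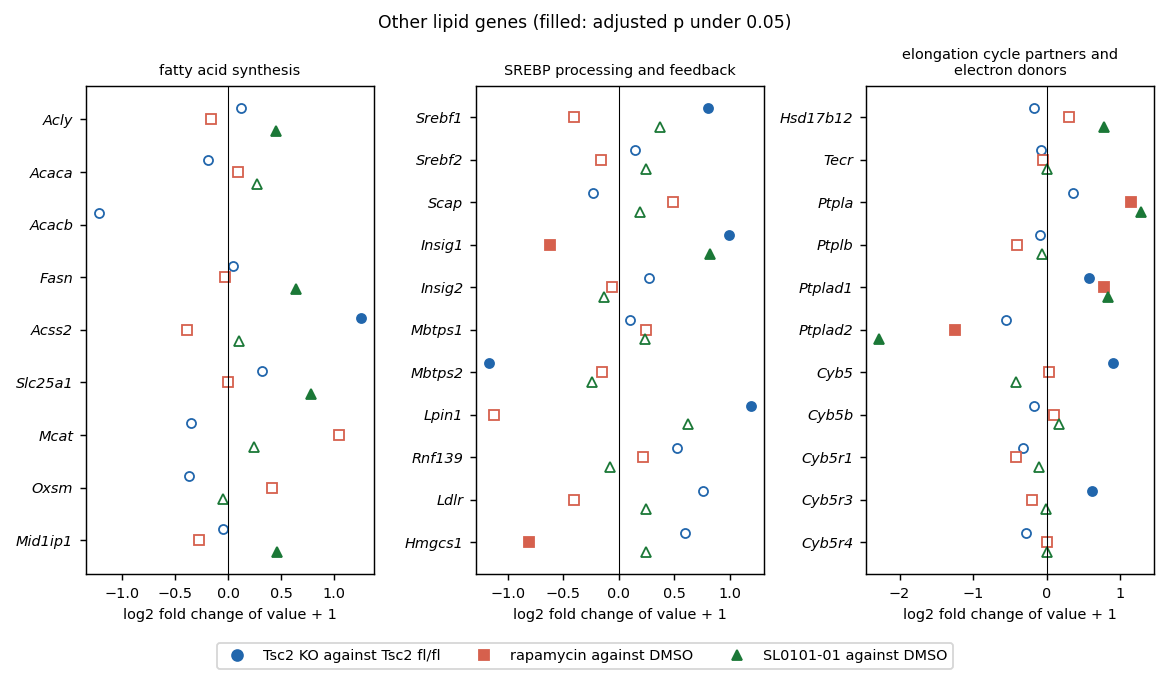
Log2 fold change of value plus 1 (x axis) of genes of fatty acid synthesis, SREBP processing and feedback, and the elongation cycle (y axis) in Tsc2 KO against Tsc2 fl/fl (circles), rapamycin against DMSO (squares) and SL0101-01 against DMSO (triangles). Of the 13 SREBP genes 11 are drawn. Filled symbols had adjusted p under 0.05, among them Cyb5 and Insig1 in Tsc2 KO and Fasn and Insig1 in SL0101-01.

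Of the LXR receptors and targets, 1 of 9 tested passed as higher in Tsc2 KO, and it was Lpcat3. Lpcat3 averaged 175 ± 13.1 in Raptor KO and 254 ± 14.3 in Raptor fl/fl (log2 fold change -0.53, adjusted p = 0.0416), and 375 ± 21.6 in Tsc2 KO and 249 ± 31.1 in Tsc2 fl/fl (SD, n = 3 each, 0.59, adjusted p = 0.011). In rapamycin it averaged 216 ± 13.7, in SL0101-01 331 ± 5.55 and in DMSO 315 ± 1.64 (SD, n = 2 each), with rapamycin lower than DMSO (-0.55, adjusted p = 0.0245). The other LXR gene that passed in Raptor KO was Apoe, higher by 1.01. In rapamycin 3 of 8 tested were lower, Lpcat3, Mylip, which tags the LDL receptor for degradation, and Abcg1, a sterol exporter, and in SL0101-01 1 was lower, again Abcg1.

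Of 13 genes that release and oxygenate polyunsaturated fatty acids, 6 were lower and 1 higher in Tsc2 KO, with a list median of -0.88. Pla2g4a, the phospholipase that frees arachidonic acid, averaged 58.7 ± 25.4 in Tsc2 KO and 111 ± 9.69 in Tsc2 fl/fl (SD, n = 3 each, -0.99, adjusted p = 0.0147), and Lta4h, which makes leukotriene B4, fell by 0.88. Of the 9 progenitor markers 2 were lower in Tsc2 KO, with the sums given above, and their part in this list was not tested. In Raptor KO 1 of 13 was higher, Hpgds, a prostaglandin D synthase. With rapamycin 1 was higher and 3 lower, and with SL0101-01 1 was higher and 2 lower. Lta4h, higher with both, averaged 4641 ± 14.7 in rapamycin, 4407 ± 548 in SL0101-01 and 2497 ± 49.0 in DMSO (SD, n = 2 each).

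Of 9 acyl-CoA synthetases tested in progenitors, 2 were higher in Tsc2 KO (Acsl5, 0.59, and Acsl6, 1.62) and Slc27a1 was lower (-1.93), and Acsl1 was the 1 that passed in Raptor KO (-0.68). In Hoxb8 cells Slc27a1 was lower in rapamycin (-2.35) and Acsl1 higher in SL0101-01 (0.67), each 1 of 7 tested. Of 13 genes of mitochondrial fatty acid oxidation 2 were lower in Tsc2 KO, and Cpt1a, the carnitine transferase that admits fatty acids to mitochondria, averaged 141 ± 24.1 in Tsc2 KO and 263 ± 21.9 in Tsc2 fl/fl (SD, n = 3 each, -0.91, adjusted p = 0.00145). In Raptor KO 1 of the 13 was higher, again Cpt1a, at 338 ± 15.7 in Raptor KO and 226 ± 30.6 in Raptor fl/fl (SD, n = 3 each, 0.58, adjusted p = 0.0451), and 2 were lower. With rapamycin 1 was higher and 1 lower, and with SL0101-01 1 was higher. Of 8 genes of peroxisomal chain shortening, 1 was higher in Tsc2 KO (Pex5) and 1 lower in Raptor KO (Hsd17b4), and of 7 tested in Hoxb8 cells 1 was lower in rapamycin and 2 in SL0101-01, both times with Hsd17b4.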

How the data were processed

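The authors' deposited table gives, for 22787 genes and 18 libraries, a signal: fragment counts scaled by 1 size factor for each library. In each library 97.97% to 99.01% of the values above 0 were whole multiples of 1 step (tolerance 0.01), from which fragments were recovered. Per the submitters' processing notes BWA, TopHat2 2.0.10, Cufflinks 2.2.1 and Cuffnorm were used, and the sources used here name no genome build. Since not every value was whole, no count model was used. Progenitors and Hoxb8 cells were fitted separately with limma 3.58.1 in R 4.3.3 on log2(value + 1), with an expression trend and robust variances, over genes with a value of 1 or more in at least 3 progenitor (13237 genes) or 2 Hoxb8 libraries (11804 genes). Benjamini-Hochberg adjustment ran over all genes tested, with a threshold of 0.05. The fit was also run on simulated counts with the same extra spread for all genes, which checks the code and not the error rates in these data. Replicate pairs differed by more than counting noise, and the labels do not say whether they came from separate animals or cultures, so the spread may be technical. Both Tsc2 groups hold libraries with and without Y-linked transcripts, so each came from more than 1 animal. The members, the lists and the markers were chosen with earlier results of these data known, and named list genes are part of those with the smallest p of each list. List symbols were matched to the table through RefSeq synonyms, 5 of them under older names. Promoter entries were found for Fads2, Fads3, Elovl1, Elovl5, Elovl6 and Elovl7. A few genes of the lists are not reported here by name.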

Additional observations from a re-analysis of the deposited data

Results flagged for a closer look

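Scd1 was lower in all Raptor KO libraries and higher in all Tsc2 KO libraries than in their own fl/fl libraries, with effects of -5.32 and 1.91 that differ by -7.23 on the log2 scale. Fads2 did the same, with effects of -1.25 and 1.16 that differ by -2.41. In Hoxb8 cells, Fads1 was lower in both rapamycin libraries and higher in both SL0101-01 libraries than in DMSO, and these effects differ by -1.05. For Fads2 the effects differ by -2.80, from -2.43 in rapamycin and 0.37 in SL0101-01. These differences were not tested. The set was chosen on the Scd1 loss in Raptor KO and the Fads2 difference between the inhibitors, which enter some of them. Both inhibitor effects share the DMSO libraries.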

How the results depend on the processing

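Without the expression trend, the genes called numbered 827 in Tsc2 KO against 1638 with it, 188 against 522 in Raptor KO, 171 against 1386 in rapamycin, 87 against 1284 in SL0101-01 (both over DMSO), and 0 against 1047 between the inhibitors. The members called were then 0 in Tsc2 KO and 0 in rapamycin. With only the groups compared in the fit, 471, 1249 and 542 genes were called in Tsc2 KO, in Raptor KO and between the inhibitors, and 0 members in Tsc2 KO. Quantile normalization left 2 members in Tsc2 KO, as did leaving out both libraries with Y-linked transcripts, which was chosen after seeing the data, like the voom weights. Leaving out 1 library at a time gave 601 to 2498 genes and 0 to 7 members in Tsc2 KO, 146 to 402 genes in Raptor KO, 540 to 1164 genes and 1 to 2 members in rapamycin, 323 to 868 genes in SL0101-01, and 128 to 863 genes between the inhibitors. An arm left with 1 library was assumed to vary like the others. The cause of these changes was not tested. With such a library left out, fold changes that had not passed changed sign. They ran from -0.06 to 0.10 (Elovl5), -0.87 to 0.05 (Elovl6) and -0.99 to 0.03 (Elovl7) in rapamycin, and from -0.04 to 0.32 (Scd2), -0.10 to 0.01 (Elovl1), -0.54 to 0.22 (Elovl6) and -0.92 to 0.11 (Elovl7) in SL0101-01. In rapamycin, Elovl1 was 0.04 under quantile normalization and Elovl5 -0.01 with voom weights. Some fits gave no value for Fads3, which then failed the filter.

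The replicate numbers were not taken to pair libraries, since not every same-numbered pair deviated together. Deviations correlated at -0.03 to 0.25 in the Tsc2 line, where both replicate 2 libraries also share Y-linked transcripts, 0.01 to 0.05 in the Raptor line and 0.005 to 0.046 in Hoxb8 cells. With the replicate number as a block, 1882 genes and 5 members were called in Tsc2 KO, 706 genes in Raptor KO, 1857 genes and 2 members in rapamycin, 1828 genes in SL0101-01 and 1691 between the inhibitors. No call of a member changed with the block. At 2.31 to 3.52 M fragments a library, Fads3 and Scd1 in Hoxb8 cells lie at or below what can be detected.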
